A study of Arabidopsis thaliana with 6 samples.

Results

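The genes described here are those of the Arabidopsis thaliana plastid genome that encode subunits of the NDH complex, ribosomal proteins, subunits of RNA polymerase and a few further proteins outside the photosynthetic complexes. A probe set of the Affymetrix ATH1 array was taken where the platform annotation named it with 1 plastid-encoded gene whose symbol begins with ndh, rps, rpl or rpo, or is accD, clpP, clpP1, matK, ccsA, cemA, ycf1 or ycf2. This gave 34 of the 22810 probe sets on the array: 10 for NDH subunits, 8 for proteins of the small ribosomal subunit, 7 for proteins of the large subunit, 4 for RNA polymerase and 5 others. The chromosome column of the TAIR10.1 annotation placed each of them in the plastid genome. A further 8 probe sets, whose entries repeat 1 such gene under several gene numbers, were left out, so that ycf1 and ycf2 have no member.

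Chloroplasts keep a small genome of bacterial origin. Its NDH genes encode core subunits of a membrane complex that takes electrons from ferredoxin into the plastoquinone pool and so serves cyclic electron flow around photosystem I. Its rps and rpl genes encode part of the plastid ribosome, whose other proteins come from the nucleus. The rpo genes encode the core of a bacterial type polymerase that needs nuclear sigma factors and transcribes mainly the photosynthesis genes. A phage type polymerase encoded in the nucleus also transcribes the plastid genome, and the rpoB gene cluster, accD and clpP are known templates of it. Many of these genes lie in clusters that are transcribed together and then cut and spliced.

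Total RNA of whole plants was read on 6 arrays, 2 for each of 3 groups: the OCTOPUS overexpressor labelled 35SDYG25, the octopus mutant labelled DYG25, and wild type labelled WS, for which the labels give the accession Wassilewskija. OCTOPUS (OPS) is a gene of phloem formation, and by the labels its mutant has defects of phloem differentiation and of vein patterning. All plants were untreated and grew on MS/2 medium at 20 °C and 70% hygrometry. Plant age, the background of the mutant and of the overexpressor, and the tissue in which the transgene is active are not in the labels. Nor do they say whether the samples of a group were grown separately, so the p-values here speak only of the spread among these arrays, which may be technical.

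All levels are log2 GCRMA values, so that a difference of 1 is a 2-fold difference. A change is the difference of 2 group means, and it passed where the adjusted p of a limma fit over 12363 probe sets was below 0.05, controls and probe sets averaging under 4 being left out. Of the 34 probe sets 31 met that mean and were tested. Array medians lay between 4.40 and 4.49, and the OPS transcript stood at 9.52 and 9.83 in the overexpressor, 2.53 and 2.47 in the mutant and 2.66 and 2.47 in wild type. The OPS level checks the label of the overexpressor and not that of the mutant, since wild type was already near the floor. Markers of green tissue and of roots were read on every array. LHCB4.1 of the photosystem II antenna lay between 12.82 and 12.95, LHCB4.2 between 9.84 and 11.63, and the root gene PYK10 between 11.93 and 12.50. The root hair genes EXPA7 and EXPA18 were lower, between 5.19 and 5.93 and between 5.27 and 5.63. In whole plants, fewer plastids or green cells and less of a transcript per cell cannot be told apart.

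By median, the wild-type arrays parted the 31 tested genes more widely than the groups did. Wild-type array 1 gave the highest of the 6 values for 22 of them, mutant array 1 for the other 9, and none had its highest value on an overexpressor array. Over all tested probe sets wild-type array 1 was highest for 17.5% and mutant array 1 for 17.9%. The lowest value stood on overexpressor array 2 for 18 genes, on wild-type array 2 for 11 and on mutant array 2 for 2. Over all tested probe sets these arrays were lowest for 25.92%, 12.02% and 15.47%, in the same order. Overexpressor array 2 was thus the array most often lowest over all tested probe sets too. Among the 31 genes wild type supplied most of the highest and many of the lowest values.

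Within wild type, array 1 exceeded array 2 for 30 of the 31 genes, by a median of 0.76 log2 units and by 1 or more for 11 of them. The median gap over all tested probe sets was 0. Array 1 was also the higher one for 27 of 31 genes in the mutant, with a median gap of 0.20, and for 29 of 31 in the overexpressor, with a median gap of 0.31. The median standard deviation within groups was 0.362 for the 31 genes, against 0.152 over all tested probe sets and 0.242 over the 34 tested photosynthesis genes of the plastid. By role the wild-type gap was widest for polymerase genes, with a median of 1.35, and for NDH genes, with 1.07. It was 0.92 for proteins of the large ribosomal subunit, 0.43 for the other genes and 0.17 for proteins of the small subunit.

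**Figure D1:**
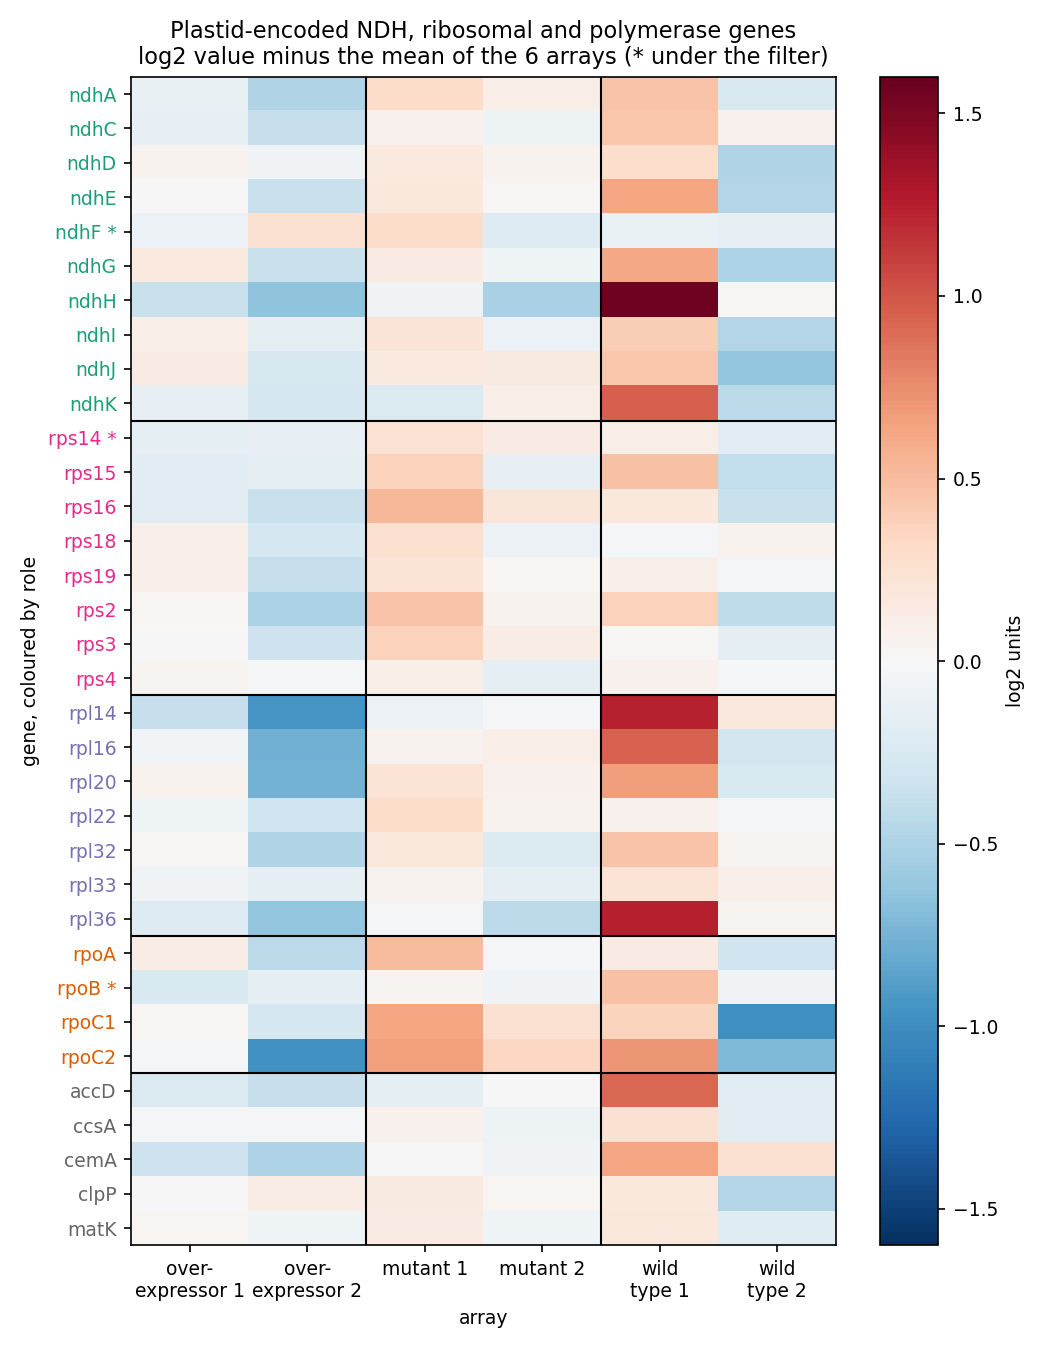
Each row is 1 of the 34 genes, with names coloured by role, each column 1 array, and the colour gives the log2 value minus the gene's mean over the 6 arrays. The column of wild-type array 1 is mostly red and that of overexpressor array 2 mostly blue. The 3 genes with a star had a mean under 4 and were not tested.

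Control signals that do not come from the plants also set the wild-type arrays apart. The median deviation of the 31 genes from their 6-array mean was -0.01 and -0.36 on the overexpressor arrays, 0.16 and 0.00 on the mutant arrays, and 0.45 and -0.25 on the wild-type arrays. For 18 probe sets of the hybridisation spikes bioB, bioC, bioD and cre it was -0.34 and 0.02 in the overexpressor, 0.15 and -0.23 in the mutant, and 0.66 and -0.35 in wild type. For 24 probe sets of the RNA spikes dap, lys, phe and thr it was -0.32 and -0.42 in the overexpressor, -0.28 and 0.08 in the mutant, and -0.83 and 1.78 in wild type. Wild-type array 1 was thus highest in the hybridisation spikes and lowest in the RNA spikes.

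For the GAPDH control, the 3' minus the 5' value was 1.92 and 1.72 in the overexpressor, 1.80 and 1.39 in the mutant and 1.42 and 1.12 in wild type. The 3' actin control read 10.71 and 10.34 in the overexpressor, 10.78 and 10.78 in the mutant and 10.71 and 10.75 in wild type. The 5' actin control read 5.37 and 5.37, 5.36 and 5.44, and 5.39 and 5.67 in the same order. The probe set of 25S ribosomal RNA read 6.28 and 6.61 in the overexpressor, 8.03 and 11.20 in the mutant and 6.42 and 5.86 in wild type. The part of these signals in the results below was not tested. Among nuclear genes, the median deviation of an array lay between -0.08 and 0.09 for 9 tested genes of plastid ribosomal proteins. For 8 genes grouped with the NDH complex it lay between -0.21 and 0.15, and for 3 genes of plastid RNA processing between -0.16 and 0.38.

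**Figure D2:**
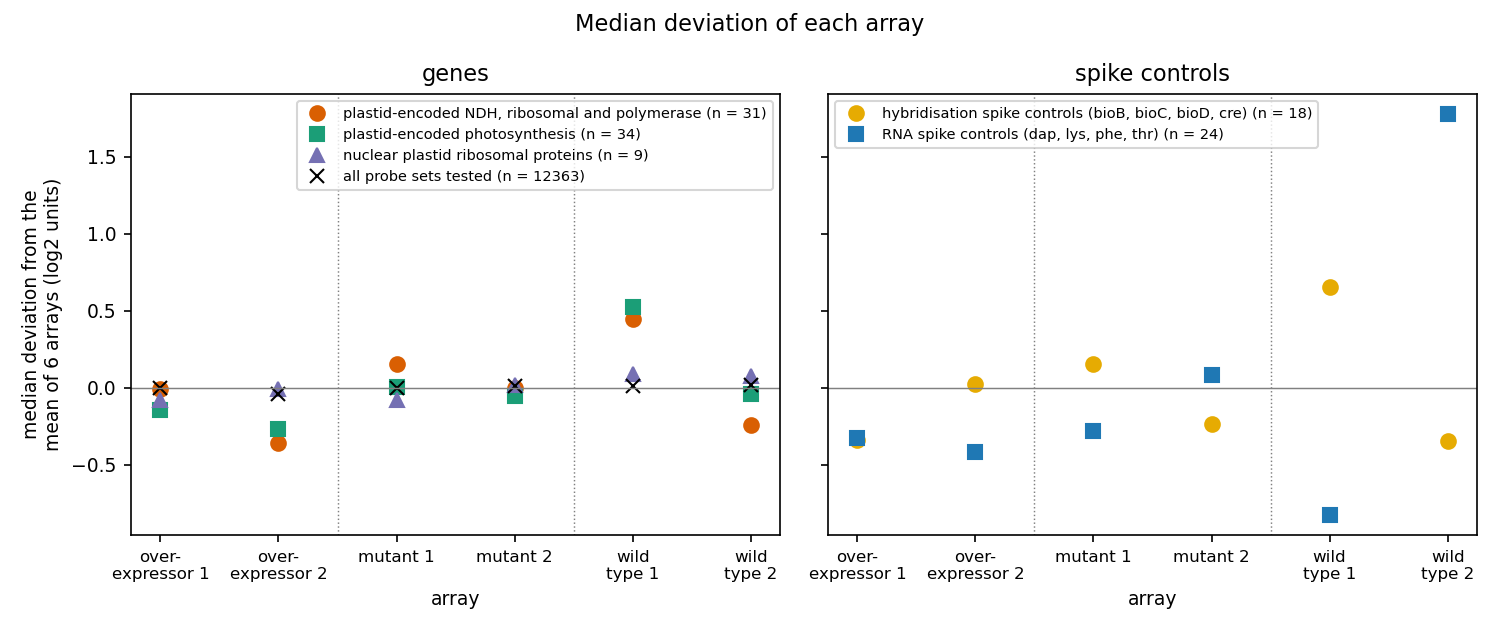
Each point is the median, over the probe sets of a list, of the log2 value on 1 array minus the mean of the 6 arrays. On the left the plastid-encoded genes of both kinds stand highest on wild-type array 1 while the median of all probe sets stays near 0, and on the right the spike controls part the wild-type arrays in opposite directions.

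In the overexpressor against wild type, 1 of the 31 genes fell and none rose. Over all tested probe sets 2.53% passed in either direction, 1.49% higher and 1.04% lower, so that the count is near the background. The gene was cemA, which encodes a protein of the chloroplast envelope. The median change of the 31 genes was -0.21, with 26 negative and 5 positive changes, and that of all tested probe sets was -0.05. An unadjusted p below 0.05 was reached by 6 of the 31, against 20.7% of all probe sets. The arrays of the groups did not overlap for 9 genes that were lower and for 0 that were higher, against 28.5% and 21.9% of all probe sets.

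In the mutant against wild type, none of the 31 genes passed limma, against 14% of all tested probe sets, 6.84% higher and 7.2% lower. An unadjusted p below 0.05 was reached by 2, rpl36 and cemA, against 30.8% of all probe sets. The median change was 0.03, with 17 positive and 14 negative changes, and -0.01 over all tested probe sets. The arrays did not overlap for 5 genes that were lower and 2 that were higher, against 32% and 30.5% of all probe sets. The 2 comparisons share their wild-type arrays.

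In the overexpressor against the mutant, none of the 31 passed limma, against 18.4% of all tested probe sets, 8.8% higher and 9.55% lower. An unadjusted p below 0.05 was reached by 4, rps16, rps3, rpl22 and cemA, against 34.4% of all. The change was negative for 30 of 31 genes, against 6530 of all 12363 tested probe sets. The median was -0.24, and -0.03 over all tested probe sets. The arrays did not overlap for 17 genes that were lower in the overexpressor and for 0 that were higher, against 33.3% and 28.8% of all probe sets. Without overexpressor array 2 the median was -0.10, with 24 of 31 genes negative, and without overexpressor array 1 it was -0.41.

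**Figure D3:**
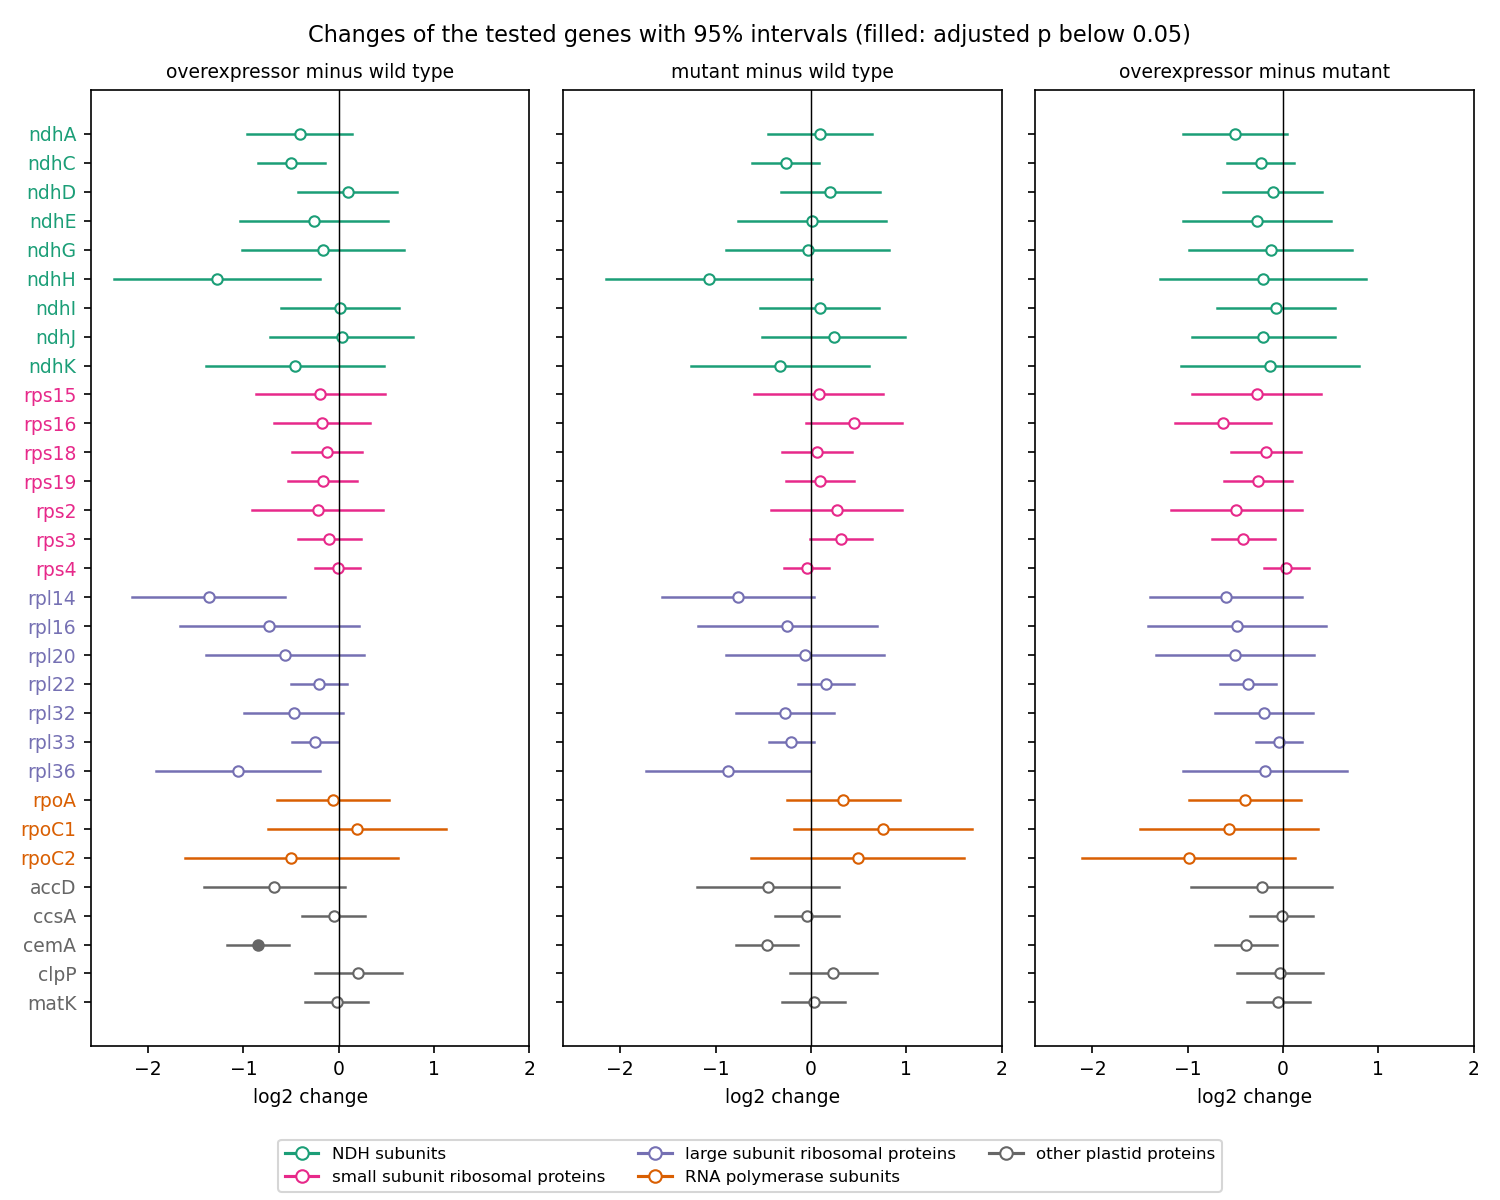
Points are the log2 changes of the 31 tested genes in 3 comparisons and bars their 95% intervals from the limma fit, coloured by role. The 1 filled point is cemA in the overexpressor against wild type, and nearly all points of the right panel lie left of 0.

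The NDH genes of the plastid encode subunits of the membrane arm and of the arm that connects it to ferredoxin. None of the 9 tested passed in any comparison. Their median change was -0.26 in the overexpressor and 0.02 in the mutant, each against wild type. ndhF, which encodes a large subunit of the membrane arm, was not tested. It read 2.71 and 3.05 in the overexpressor, 3.11 and 2.61 in the mutant and 2.70 and 2.68 in wild type, close to the floor of the arrays, whose 25th percentiles lay between 2.54 and 2.70.

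ndhH, which encodes a subunit of the arm outside the membrane, had the lowest change of the group. It read 5.23 and 4.94 in the overexpressor, 5.53 and 5.06 in the mutant and 7.14 and 5.60 in wild type. Both lines lay below both wild-type arrays, and wild-type array 1 stood 1.54 above array 2. The difference from wild type was -1.28 in the overexpressor (SE 0.457, limma adjusted p = 0.182) and -1.07 in the mutant (SE 0.457, adjusted p = 0.166). Without wild-type array 2 it was -2.05 in the overexpressor and -1.84 in the mutant, and without wild-type array 1 it was -0.30 in the mutant. The overexpressor mean was 5.085, against 5.60 on wild-type array 2 alone.

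ndhA encodes a membrane subunit. It read 10.12 and 9.76 in the overexpressor, 10.54 and 10.35 in the mutant and 10.70 and 10 in wild type. The overexpressor lay below the mutant without overlap, by -0.51 (SE 0.232, adjusted p = 0.173), while the wild-type arrays spanned both lines apart from overexpressor array 2.

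ndhI, for an iron-sulfur subunit, and ndhD, for a large membrane subunit, had strong signals and small changes. ndhI read 12.42 and 12.17 in the overexpressor, 12.52 and 12.22 in the mutant and 12.71 and 11.85 in wild type. ndhD read 12.02 and 11.91 in the overexpressor, 12.12 and 12.03 in the mutant and 12.25 and 11.49 in wild type. For both genes the wild-type arrays enclosed the other 4 arrays. The 95% interval of the change against wild type ran from -0.61 to 0.64 for ndhI and from -0.42 to 0.61 for ndhD in the overexpressor, and from -0.53 to 0.71 and from -0.31 to 0.72 in the mutant. The change of ndhD in the mutant was 0.585 without wild-type array 1 and -0.175 without wild-type array 2.

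Of the other subunits, ndhC had the narrowest error in the overexpressor, at -0.50 (SE 0.148, adjusted p = 0.128), and was at -0.27 in the mutant. ndhK, which lies beside ndhC in the genome, was at -0.46 in the overexpressor and -0.33 in the mutant. The third gene of that cluster, ndhJ, was at 0.03 and 0.24. ndhE was at -0.26 in the overexpressor and 0.02 in the mutant, and ndhG at -0.17 and -0.04. Of these 5, ndhC alone kept all its overexpressor arrays below all its wild-type arrays.

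None of the 7 tested genes for proteins of the small ribosomal subunit passed in any comparison. Their changes against wild type lay between -0.22 and -0.01 in the overexpressor and between -0.05 and 0.46 in the mutant, and 6 of 7 were positive in the mutant. rps14 was near the floor and was not tested. It read 2.46 and 2.48 in the overexpressor, 2.85 and 2.74 in the mutant and 2.71 and 2.44 in wild type.

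rps16 had the largest difference between the lines in this group. It read 6.22 and 6.04 in the overexpressor, 6.93 and 6.59 in the mutant and 6.57 and 6.04 in wild type. The mutant arrays lay above all others. The overexpressor was below the mutant by -0.63 (SE 0.213, adjusted p = 0.0837). The change in the mutant against wild type was 0.46 (SE 0.213, adjusted p = 0.199).

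rps3 read 12.01 and 11.68 in the overexpressor, 12.38 and 12.14 in the mutant and 12.03 and 11.86 in wild type. As for rps16 the mutant arrays were the highest, and the overexpressor overlapped wild type. The overexpressor was below the mutant by -0.42 (SE 0.139, adjusted p = 0.0820). Without overexpressor array 1 this difference was -0.58, with 1 overexpressor array in the fit.

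rps2 read 9.11 and 8.57 in the overexpressor, 9.53 and 9.13 in the mutant and 9.45 and 8.67 in wild type. Its overexpressor arrays lay below the mutant arrays by -0.49 (SE 0.290, adjusted p = 0.279), and wild type overlapped both. rps4, for a protein that starts the assembly of the small subunit in bacteria, read 13.57 and 13.51 in the overexpressor, 13.63 and 13.38 in the mutant and 13.60 and 13.50 in wild type. All groups overlapped, and the 95% interval of the change against wild type ran from -0.24 to 0.22 in the overexpressor and from -0.28 to 0.19 in the mutant. These values lie near the highest value of any probe set on the 6 arrays, 14.3.

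The other small subunit genes had changes below 0.2 in size against wild type. In the overexpressor rps15 was at -0.195, rps18 at -0.12 and rps19 at -0.17, and in the mutant they were at 0.08, 0.06 and 0.10. Between the lines rps19 was at -0.265 with all arrays and at -0.485 without overexpressor array 1.

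The genes for proteins of the large ribosomal subunit were lower in the overexpressor than in wild type in 7 of 7 cases by sign, with a median of -0.57, and none passed. In the mutant 6 of 7 changes were negative, with a median of -0.25, and again none passed.

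rpl14 read 7.32 and 6.74 in the overexpressor, 7.59 and 7.67 in the mutant and 8.92 and 7.87 in wild type. The groups did not overlap, with the overexpressor lowest and wild type highest. The difference from wild type was -1.37 in the overexpressor (SE 0.338, adjusted p = 0.0945) and -0.77 in the mutant (SE 0.338, adjusted p = 0.179). Without wild-type array 2 these differences were -1.89 and -1.29, and without wild-type array 1 they were -0.84 and -0.24.

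rpl36 encodes a short protein of the large subunit and lies next to rpl14 among the genes with a named probe set. It read 10.21 and 9.78 in the overexpressor, 10.38 and 9.99 in the mutant and 11.65 and 10.46 in wild type. Both lines lay below wild type, whose arrays were 1.19 apart. The difference from wild type was -1.06 in the overexpressor (SE 0.364, adjusted p = 0.172) and -0.87 in the mutant (SE 0.364, adjusted p = 0.159).

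rpl22 read 11.46 and 11.21 in the overexpressor, 11.82 and 11.58 in the mutant and 11.60 and 11.49 in wild type. The overexpressor lay below the mutant by -0.37 (SE 0.123, adjusted p = 0.0838) without overlap, and wild type lay above the overexpressor and overlapped the mutant. rpl33 read 12.23 and 12.15 in the overexpressor, 12.34 and 12.13 in the mutant and 12.51 and 12.37 in wild type, with both lines below wild type. Its change was -0.25 in the overexpressor (SE 0.101, adjusted p = 0.225) and -0.21 in the mutant (adjusted p = 0.22).

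The other genes of the group had larger errors or smaller changes. rpl16 was at -0.73 in the overexpressor (SE 0.396) and -0.25 in the mutant, rpl20 at -0.57 (SE 0.350) and -0.07, and rpl32 at -0.48 (SE 0.217) and -0.27. Of these rpl32 alone had all its overexpressor arrays below all its wild-type arrays, with 10.84 and 10.34 in the overexpressor against 11.27 and 10.86 in wild type.

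None of the 3 tested polymerase genes passed, and for each the mutant had the highest of the group means. Their changes in the mutant against wild type were 0.34 for rpoA, 0.75 for rpoC1 and 0.49 for rpoC2, all positive, and the overexpressor was below the mutant for each.

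rpoA, for the alpha subunit, read 11.49 and 10.94 in the overexpressor, 11.88 and 11.35 in the mutant and 11.50 and 11.05 in wild type. All groups overlapped, and the overexpressor was below the mutant by -0.40 (SE 0.249, adjusted p = 0.302). rpoC1, for the beta prime subunit, read 9.25 and 8.94 in the overexpressor, 9.85 and 9.47 in the mutant and 9.58 and 8.23 in wild type. Its mutant arrays lay above the overexpressor arrays, and wild type spanned 1.35 units. The change in the mutant was 0.75 (SE 0.395, adjusted p = 0.249). It was 1.43 without wild-type array 1 and 0.08 without wild-type array 2.

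rpoC2, for the beta double prime subunit, read 8.69 and 7.75 in the overexpressor, 9.38 and 9.05 in the mutant and 9.43 and 8.01 in wild type. The overexpressor was below the mutant by -0.99 (SE 0.472, adjusted p = 0.188), a fold of 1.99 whose 95% interval on the log2 scale ran from -2.11 to 0.13. rpoB, for the beta subunit, had a mean under 4 and was not tested. It read 2.88 and 2.96 in the overexpressor, 3.16 and 3.07 in the mutant and 3.59 and 3.07 in wild type. Of the nuclear genes for plastid transcription, such as sigma factors and proteins bound to the plastid polymerase, none of the 20 matched genes had a probe set with 1 name.

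cemA was the gene that passed. It read 10.40 and 10.24 in the overexpressor, 10.74 and 10.67 in the mutant and 11.36 and 10.98 in wild type. The groups did not overlap, with the overexpressor lowest and wild type highest. cemA fell 1.80-fold in the overexpressor against wild type, a log2 change of -0.85 (SE 0.138, limma adjusted p = 0.0309). In the mutant against wild type the change was -0.465 (SE 0.138, adjusted p = 0.0677), and in the overexpressor against the mutant it was -0.385 (SE 0.138, adjusted p = 0.0965).

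The cemA call was lost without wild-type array 1 (adjusted p = 0.124), either mutant array (0.0983 and 0.099), overexpressor array 1 (0.0539) or overexpressor array 2 (0.152), and kept without wild-type array 2. The change itself stayed between -1.04 and -0.66 in these fits.

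accD encodes a subunit of the plastid acetyl-CoA carboxylase of fatty acid synthesis. It read 7.62 and 7.48 in the overexpressor, 7.70 and 7.85 in the mutant and 8.77 and 7.68 in wild type. The overexpressor lay below wild type without overlap by -0.68 (SE 0.314, adjusted p = 0.276), and the change in the mutant was -0.45 (SE 0.314, adjusted p = 0.381). Without wild-type array 2 these changes were -1.22 and -0.995, and without wild-type array 1 the change in the mutant was 0.095. The overexpressor mean was 7.55, against 7.68 on wild-type array 2 alone.

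ccsA, needed to attach haem to c-type cytochromes, read 12.51 and 12.49 in the overexpressor, 12.59 and 12.44 in the mutant and 12.77 and 12.34 in wild type. matK, for a splicing factor, read 11.83 and 11.73 in the overexpressor, 11.93 and 11.73 in the mutant and 11.99 and 11.61 in wild type. For both the wild-type arrays enclosed the others. Their changes against wild type were -0.06 and -0.02 in the overexpressor and -0.04 and 0.03 in the mutant. clpP, for the proteolytic subunit of the Clp protease, was at 0.21 in the overexpressor and 0.24 in the mutant. In the mutant it was at 0.555 without wild-type array 1 and at -0.085 without wild-type array 2.

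Changes were also set out along clusters of neighbouring genes; differences between genes of a cluster were not tested. In the cluster that runs from rps19 to rpoA, the changes in the overexpressor against wild type were -0.17 for rps19, -0.21 for rpl22 and -0.10 for rps3, then -0.73 for rpl16, -1.37 for rpl14 and -1.06 for rpl36, and -0.06 for rpoA at its end. In the mutant the same genes stood at 0.10, 0.16, 0.32, -0.25, -0.77, -0.87 and 0.34. None of these genes passed in either line, and wild-type array 1 carried much of the low values. Without it rpl16, rpl14 and rpl36 were at -0.11, -0.84 and -0.465 in the overexpressor and at 0.37, -0.24 and -0.275 in the mutant.

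In the cluster from ndhD to ndhH, which also holds psaC of photosystem I, ndhD, ndhE, ndhG, ndhI and ndhA had changes between -0.41 and 0.10 in the overexpressor, while psaC was at -1.48 and ndhH at -1.28. In the mutant psaC was at -0.87 and ndhH at -1.07. cemA lies between ycf4, a photosystem I assembly gene that fell by 1.13 in the overexpressor (adjusted p = 0.0265), and petA of the cytochrome bf complex at -0.29. accD opens that cluster, and psaI beside it was at -0.26. rps2 heads the cluster of ATP synthase genes. Its change of -0.22 in the overexpressor stood beside -0.66 for atpI, -1.69 for atpH, -1.74 for atpF and -0.16 for atpA. In clusters not drawn, the overexpressor changes were -0.50 for ndhC, -0.46 for ndhK and 0.03 for ndhJ, and -0.25 for rpl33 and -0.12 for rps18. They were -0.565 for rpl20 and 0.205 for clpP, and -0.50 for rpoC2 and 0.19 for rpoC1. Beside the untested rps14, psaB and psaA of photosystem I were at 0.065 and -1.53.

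**Figure D4:**
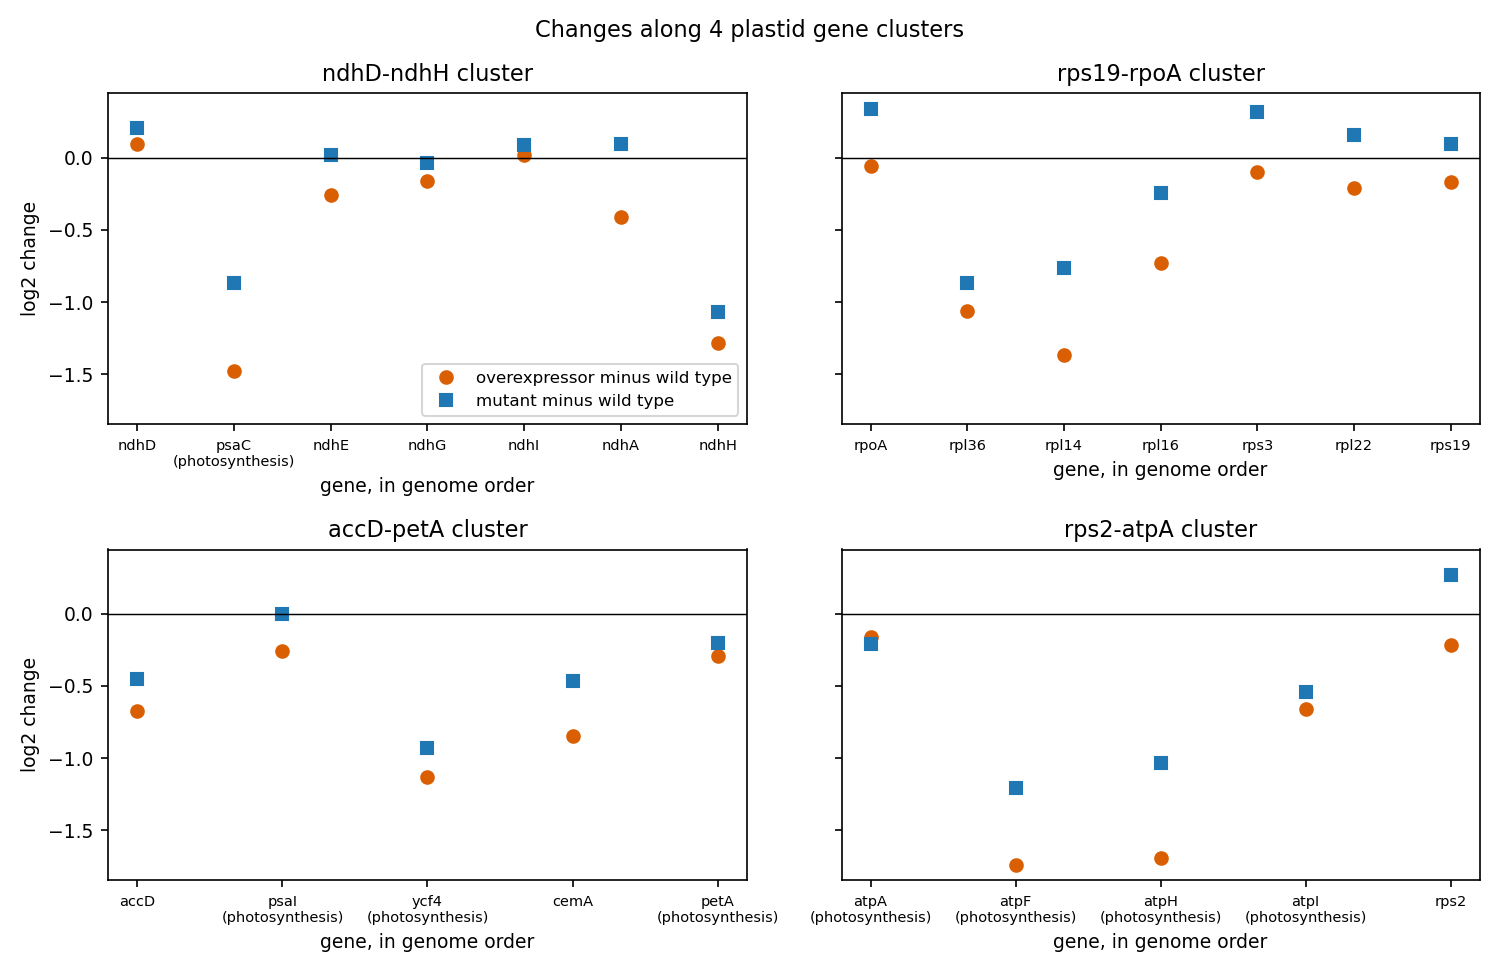
Each panel is a cluster of neighbouring plastid genes in genome order, and points give the log2 change of each gene in the overexpressor and in the mutant against wild type. In the overexpressor the highest change of each of these 4 clusters lies between -0.26 and 0.10 and the lowest between -1.74 and -1.13, and photosynthesis genes are marked as such.

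The photosynthesis genes of the plastid had more calls than the genes described here. Of 34 tested, 10 fell in the overexpressor and 8 in the mutant, against 1.04% and 7.2% of all tested probe sets, and none rose. Their median change was -0.45 in the overexpressor and -0.28 in the mutant, where the NDH, ribosomal and polymerase genes had -0.21 and 0.03. In the overexpressor against the mutant none of the 34 passed, the median was -0.22, and 27 changes were negative. The arrays there did not overlap for 22 genes that were lower and 3 that were higher, against 33.3% and 28.8% of all probe sets. The difference between these lists was not tested, and the lists share their arrays. Wild-type array 1 was the highest of 6 for 30 of the 34 photosynthesis genes too.

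Nuclear genes linked to the same complexes were few by name. Of a list of nuclear NDH subunits and assembly factors, 8 genes were tested. These include PGRL1B, CRR21 and CRR22, which are neither subunits nor assembly factors of the complex. None of the 8 passed in the overexpressor and 2 fell in the mutant, where 7.2% of all tested probe sets passed as lower. NdhL fell by 0.545 (adjusted p = 0.0347) and CRR42 by 0.83 (adjusted p = 0.0225). NdhL is a membrane subunit and CRR42 an assembly factor of the complex. NdhN was at 0.13 in the overexpressor and -0.36 in the mutant, and NdhS at -0.17 and -0.03. The median change of the list was -0.16 in the overexpressor and -0.34 in the mutant. In the overexpressor against the mutant NdhN rose by 0.49 (adjusted p = 0.0300), and the median was 0.285 for these genes and -0.21 for the plastid NDH genes.

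Over all tested probe sets 1.04% passed as lower in the overexpressor and 7.2% in the mutant. Of 9 tested nuclear genes for plastid ribosomal proteins, 1 fell in each line. This was AT4G17560, which fell by 0.785 in the overexpressor (adjusted p = 0.0265) and by 0.50 in the mutant (adjusted p = 0.0394). The list had a median of -0.09 in the overexpressor and -0.13 in the mutant. Of the genes for plastid RNA processing and decay, 3 were tested and none passed against wild type, with CFM3A, a splicing factor, at 0.01 and 0.56, OTP84, an editing factor, at 0.16 and -0.43, and CAF1, also of splicing, at -0.03 and 0.19.

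Of the 3 tested green tissue markers none passed in the overexpressor and LHCB4.2 rose in the mutant, by 1.31 (adjusted p = 0.0254). It read 11.63 on both mutant arrays and 9.84 and 10.80 on the wild-type arrays. Of all tested probe sets, 6.84% passed as higher and 7.2% as lower in the mutant against wild type. The shares in the overexpressor against wild type were 1.49% and 1.04%. None of the 3 root markers passed in either line against wild type, with changes between -0.55 and -0.04 in the overexpressor and between -0.43 and -0.05 in the mutant. SWEET11, a sucrose exporter of the phloem, fell by 0.78 in the mutant (adjusted p = 0.0102) and was at -0.29 in the overexpressor, and FMA of guard cells was at -0.485 in both lines (adjusted p = 0.234 in the overexpressor and 0.155 in the mutant). In the overexpressor against the mutant LHCB4.2 fell by 1.21 (adjusted p = 0.0281). The green markers RCA and LHCB4.1 were at -0.185 and -0.025 there, and neither passed. PYK10 of roots fell by 0.375 (adjusted p = 0.0395) and SWEET11 rose by 0.49 (adjusted p = 0.0358) in the same comparison. Of all tested probe sets, 8.8% passed as higher and 9.55% as lower between the lines. The part of these cell types in the changes of the plastid genes was not tested.

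Which wild-type array entered the fit moved the median of the list in both lines and changed its sign in both. Without wild-type array 1 the median change of the 31 genes was 0.04 in the overexpressor and 0.37 in the mutant, with 16 and 24 positive changes. None then passed in the overexpressor, against 0.461% of all tested probe sets, and ndhD, clpP and rpoC1 rose in the mutant, where 5.52% of all passed. Without wild-type array 2 the medians were -0.61 and -0.28, with 0 and 7 positive changes. Then accD, cemA, ndhH and rpl14 fell in the overexpressor, and these and ndhK and rpl36 fell in the mutant. These 4 and 6 of 31 genes stood against 0.882% and 6.55% of all tested probe sets in the same fits. A fit with 1 wild-type array assumes that it varies like the other groups.

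**Figure D5:**
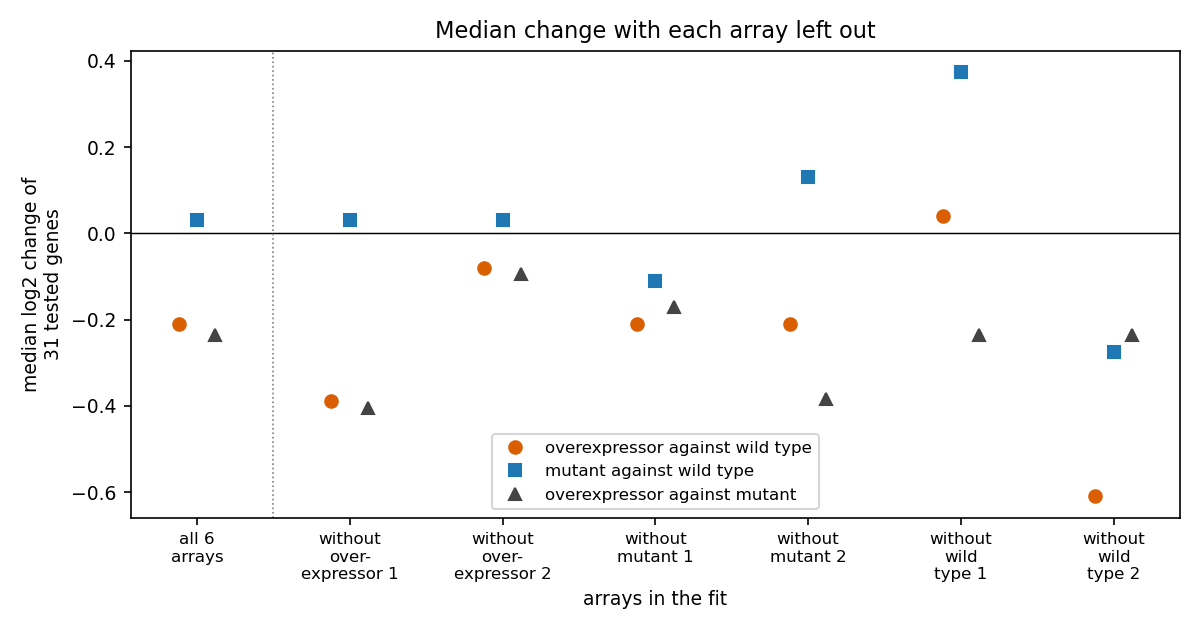
Points are the median log2 changes of the 31 tested genes in 3 comparisons, with all 6 arrays and with each array left out in turn. Leaving out wild-type array 1 or 2 moves the mutant median to 0.37 or -0.28 and the overexpressor median to 0.04 or -0.61, each against wild type.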

How the data were processed

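Biotin-labelled, amplified total RNA was hybridised to ATH1 arrays, per the labels' protocols. The authors deposited log2 values for each probe set. GCRMA, with no version, is the tool in the submitters' processing notes, and the range of the values, 1.82 to 14.3, shows their log2 scale. Nothing used here states which arrays entered 1 normalisation.

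The 64 control probe sets were left out. Genes were named through the platform annotation (13513 probe sets with 1 name, 503 with several, 8794 not listed) and TAIR10.1, which gave gene order; no coordinates are printed, as the array's build is not given. limma 3.58.1 in R 4.3.3 (lmFit, eBayes with trend, two-sided) was fitted to all 6 arrays without covariates, with 3 residual and 3.98 prior degrees of freedom, and Benjamini-Hochberg adjustment over 12363 probe sets per comparison. The fit was tested on simulated data. Errors are standard errors of the fit; the number of arrays limits the precision.

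The members and lists were chosen with earlier results of these data known. Each member is named. All 6 values are given for members that passed and, per role, for the 2 of highest signal and the 2 of largest change, plus the untested members and rpl32. Genes of other lists were taken by smallest p or as neighbours in a cluster.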

Additional observations from a re-analysis of the deposited data

How the results depend on the processing

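With quantile normalization 14.6% of all tested probe sets passed in the mutant against wild type. The number of the 31 genes past the threshold varied between fits. In the mutant against wild type it was 0 with all arrays, 1 with quantile normalization, and 0 to 6 with single arrays left out, with 3 higher without wild-type array 1 and 6 lower without wild-type array 2 (5.52% and 6.55% of all probe sets passed in these fits). In the overexpressor against wild type it was 1 with all arrays and 0 without a filter, without a mean-variance trend and with the 4 arrays compared, and 0 to 4 with single arrays left out, the 4 being without wild-type array 2, where 0.882% of all passed. Between overexpressor and mutant it was 0 with all arrays and 0 to 2 with single arrays left out. The median change ranged from -0.28 to 0.37 in the mutant against wild type, from -0.61 to 0.04 in the overexpressor against wild type and from -0.41 to -0.10 between the lines. The labels do not say that equal replicate numbers share a batch, and the numbers were not taken as pairs. Deviations of same-numbered arrays correlated across all tested probe sets at 0.16 between overexpressor and wild type, -0.31 between overexpressor and mutant and -0.24 between mutant and wild type, while among the 31 genes array 1 was the higher one for 29, 27 and 30 in overexpressor, mutant and wild type. With the replicate number as a block, 0 passed in the mutant and 1 in the overexpressor against wild type, and 2 between the lines. Of all tested probe sets 9.43%, 0.954% and 12.8% passed in these comparisons. The 2 between the lines were rpoA and rps3, lower in the overexpressor (limma adjusted p = 0.0386 and 0.0346). With the mutant numbers exchanged in the block, added after the data were examined, the counts were 2, 2 and 0 in that order. Of all tested probe sets 18.9%, 6.24% and 24.0% then passed. With the 8 probe sets of repeated genes included, also added, the counts were 1, 2 and 0. The cause of these differences was not tested.

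A mean of at least 6, arrays centred on their medians, robust eBayes and leaving out the 5 genes printed to more decimals left all 3 counts as they were. Those 5, ndhH, ndhK, rpl16, rpoC1 and rpoC2, have more decimals on the wild-type and mutant arrays and had the widest wild-type gaps, 1.24 to 1.54 against at most 1.19 in the other genes. With quantile normalization 25 of the 31 changes between overexpressor and mutant were negative, against 30. The call of cemA was lost without a filter (adjusted p = 0.0722), without the trend (0.0586) and with the 4 arrays compared (0.0986). Over all probe sets the count in the mutant against wild type ranged from 167 to 2335 in these fits, in the overexpressor against wild type from 57 to 771 and between the lines from 363 to 2972, against 1736, 313 and 2269 with the design used. With 2 arrays a group the 95% intervals of ndhH and rpoC2 reach more than 1 log2 unit to either side, so that a 2-fold change of these genes could be missed.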

Other observations

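Transcripts of the mitochondrial genome offered little to compare. Of 18 probe sets whose symbol matches a mitochondrial gene, 2 had a mean of at least 4. nad4, for a subunit of respiratory complex I, read 8.06 and 7.80 in the overexpressor, 8.49 and 7.95 in the mutant and 7.73 and 6.46 in wild type. Its wild-type arrays lay below all others, with array 1 above array 2, as for most of the plastid genes. The change against wild type was 0.84 in the overexpressor (SE 0.390, adjusted p = 0.277) and 1.12 in the mutant (SE 0.390, adjusted p = 0.104). cox1, for a subunit of cytochrome oxidase, read 5.70 and 5.65 in the overexpressor, 5.58 and 5.13 in the mutant and 5.60 and 5.02 in wild type, and did not pass.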
